A study of Danio rerio with 12 samples.

Results

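Hox genes are homeobox transcription factor genes that lie in clusters and give cells along the head-to-tail axis their regional identity. The 48 protein-coding Hox genes among the 32520 genes of the count table were selected by symbol, and they fell into 7 clusters named for their letter and copy: aa with 6 genes, ab with 5, ba with 11, bb with 4, ca with 11, cb with 4 and da with 7. By paralog number, 9 genes were anterior (1 to 3), 16 were central (4 to 8) and 23 were posterior (9 to 13). Of these, 44 had enough counts to be tested: 8 anterior, 13 central and 23 posterior.

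Within a cluster, genes with low paralog numbers are turned on first and are expressed up to the hindbrain, and genes with higher numbers are restricted to successively more posterior levels of the spinal cord, mesoderm and fins. Zebrafish carry duplicate copies of several clusters, marked a and b, from a genome duplication in the ancestor of teleost fishes. Hox proteins bind DNA with partners of the TALE family (Pbx, Meis and Pknox). Their transcription in the embryo is set by retinoic acid, Cdx factors and growth factor signals, and it is then maintained by Trithorax and Polycomb chromatin complexes.

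RNA was measured in 12 libraries of whole wild-type embryos of the AB strain at day 3. Each of 4 groups held 3 libraries, from clutches 1, 2 and 4. Exposure began 2 to 4 hours after fertilisation and lasted until collection. The vehicle group received 0.1% dimethyl sulfoxide (DMSO). The other 3 groups all received testosterone at 30 µM, alone, together with calindol at 5 µM, or together with the green tea polyphenol EGCG (epigallocatechin gallate) at 100 µM. GPRC6A is a membrane receptor, and the submitters name EGCG as its strong and calindol as its weak antagonist here. No group received an antagonist without testosterone, and the antagonists were given at different doses, so an effect of either compound by itself and its effect on the response to testosterone cannot be told apart. Embryos of the last pair of groups are called calindol embryos and EGCG embryos here, and all of them also received testosterone. In RNA from whole embryos, fewer cells of a type and less RNA per cell cannot be told apart.

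The libraries held 8181295 counts (EGCG, clutch 1) to 22510680 counts (testosterone, clutch 4). Hox genes took 4775 to 13706 counts in a library, which came to 566 to 730 CPM (counts divided by the effective library size and put on a common scale). Levels are given in CPM for each library in the order of clutches 1, 2 and 4, and only between libraries for 1 gene, since gene lengths were not used here. A gene is called changed when edgeR's quasi-likelihood test over 20237 genes gave a Benjamini-Hochberg adjusted p under 0.05. SE is the standard error of a log2 fold change in that fit.

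The bb cluster was nearly without counts. hoxb8b, hoxb6b and hoxb5b were listed at 0 in all 12 libraries, and hoxb1b, which acts in the hindbrain, had 1 count, in the DMSO library of clutch 2. Next to the cluster in the order of the table, skap1, psme3 (a proteasome activator subunit) and tmem106a were also listed at 0 and nbr1a had 1 count over all libraries, while ttll6 on the other side had 53, arl4d had 265 and dusp3a had 1643. A value of 0 in this stretch is therefore not read as absent expression. These 4 genes are the members that were not tested.

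Gene models also overlap within clusters. In a RefSeq annotation of another assembly, the long hoxb3a model spans hoxb4a to hoxb6a, hoxd3a spans hoxd4a, hoxc3a spans the stretch from hoxc4a, and hoxa5a overlaps its anterior neighbour. How reads in such stretches were assigned is not given in the sources used here, so the counts of these genes are uncertain.

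Testosterone alone left the Hox genes without a call in either direction. Of the 44 genes tested, 0 were called with edgeR, beside 6.32% of all genes tested in this comparison (2.93% higher and 3.39% lower), and DESeq2 also called 0. At an unadjusted p under 0.05, edgeR gave 3 Hox genes and DESeq2 gave 1. The median log2 fold change of the Hox genes was 0.05, beside 0.00 over all genes, with 25 genes fitted above 0 and 19 below. That median changed sign without the testosterone library of clutch 2 (-0.09) or the DMSO library of clutch 4 (-0.02). CPM ranges of the groups did not overlap for 10 Hox genes, 5 in each direction, beside 26.4% of all genes (13.4% higher and 13% lower).

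The 3 genes with an unadjusted p under 0.05 were 2 posterior genes and 1 central gene. Levels of hoxc13b, a paralog 13 gene of the kind expressed at the posterior end and in fins, were 3.39, 3.98 and 2.67 CPM in DMSO embryos and 4.06, 6.29 and 4.94 CPM with testosterone, with a log2 fold change of 0.62 (SE 0.248) and an edgeR adjusted p of 0.171. Its copy hoxc13a had 6.88, 7.69 and 6.43 CPM against 8.92, 9.92 and 8.08 CPM, with a log2 fold change of 0.36 (SE 0.165, edgeR adjusted p = 0.239). For both copies every testosterone library lay above every DMSO library, though neither passed the test. hoxa5a, a central gene, had 6.72, 8.54 and 6.76 CPM against 5.34, 5.96 and 5.50 CPM, with a log2 fold change of -0.39 (SE 0.168, edgeR adjusted p = 0.208).

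The intervals show which fold changes were compatible with the data, not what the adjusted test could detect. The largest Hox change called in any comparison was -0.86 (hoxa13a, EGCG against calindol). An interval within 1 of 0 therefore does not exclude changes of the called sizes. For 42 of the 44 genes the 95% interval of the log2 fold change lay within 1 of 0 in either direction, with the lowest bound, -0.90, for hoxb1a and the highest, 1.26, for hoxa11a, both of which had few counts. Posterior genes had a median of 0.08, with 19 of 23 fitted above 0, but this rested on the testosterone library of clutch 2. Without that library 7 of 23 lay above 0 and the median was -0.06, and without any other 1 library of the 6 the median was 0.05 to 0.24.

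hoxb1a, which sets the identity of facial motor neurons in the hindbrain, was measured near the lower limit of the test. It had 0.794, 0.637 and 0.428 CPM in DMSO embryos, 0.557, 0.867 and 0.480 CPM with testosterone, 1.14, 0.607 and 0.676 CPM in calindol embryos and 0.711, 0.573 and 0.661 CPM in EGCG embryos, where 3 counts correspond to 0.131 to 0.356 CPM. The 4 groups overlapped, and no comparison of it passed the test. hoxb4a, a caudal hindbrain gene, had many more counts, and its 4 groups overlapped too. Its levels were 16.7, 18.0 and 18.8 CPM in DMSO embryos, 17.1, 17.7 and 13.8 with testosterone, 16.1, 19.5 and 15.0 in calindol embryos, and 18.0, 18.3 and 17.4 in EGCG embryos.

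**Figure D1:**
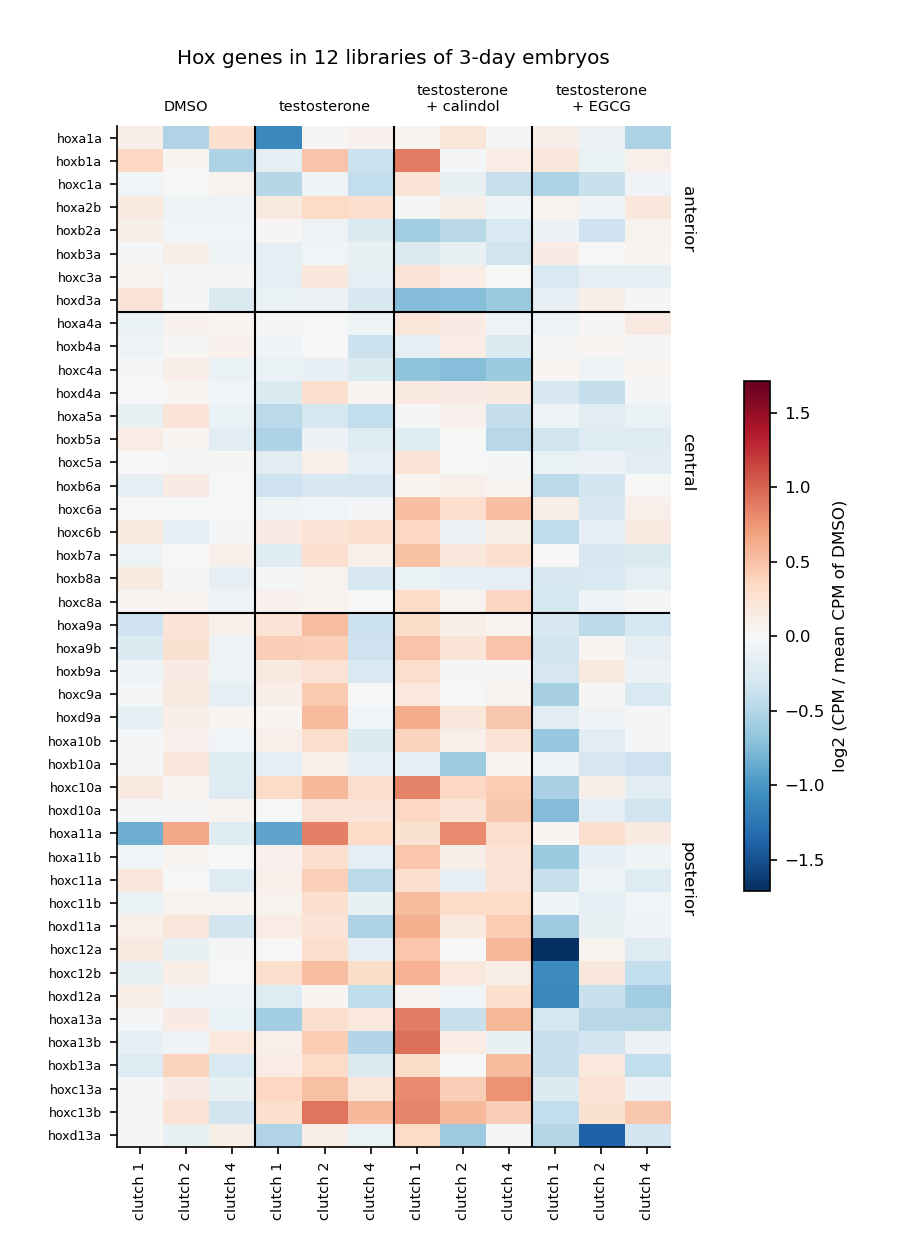
Colour shows log2 of the CPM of each library over the mean CPM of DMSO for the 44 tested Hox genes, ordered by paralog number from top to bottom, with 3 libraries (clutches 1, 2 and 4) in each of 4 groups. The posterior genes at the bottom are mostly redder in the calindol libraries of clutches 1 and 4 and bluest in the EGCG library of clutch 1, while hoxd3a and hoxc4a are blue in all 3 calindol libraries.

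Calindol embryos had lower levels than DMSO embryos of a few anterior Hox genes and of hoxc4a. They had higher levels than DMSO embryos of the central hoxc6a and of 2 posterior genes. Against DMSO, 7 of 44 Hox genes changed, 3 higher and 4 lower (6.82% and 9.09%). Both shares were below those of all genes, of which 27.4% were called, 11.5% higher and 15.9% lower. All 3 anterior genes among them fell, both posterior genes rose, and of the central genes 1 rose and 1 fell. The median was 0.15 over the Hox genes (0.08 without the calindol library of clutch 1) and 0.01 over all genes, with -0.03 for the anterior, 0.07 for the central and 0.35 for the posterior class.

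The largest decreases were in hoxd3a and hoxc4a. hoxd3a, whose paralog group acts in the caudal hindbrain and pharyngeal arches, had 39.6, 33.5 and 28.5 CPM in DMSO embryos and 31.2, 31.5 and 27.9 CPM with testosterone alone, against 20.3, 20.4 and 21.7 CPM in calindol embryos. The calindol range lay below both others, and the fold change was -0.70 (log2, SE 0.115, edgeR adjusted p = 0.000411) against DMSO and -0.53 (log2, edgeR adjusted p = 0.00359) against testosterone alone.

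hoxc4a, of the group that acts at the level of the caudal hindbrain and neck, followed the same order. Its levels were 17.7, 19.5 and 16.7 CPM in DMSO embryos, 16.6, 16.3 and 15.2 CPM with testosterone alone and 11.2, 10.9 and 11.6 CPM in calindol embryos. The groups with and without calindol did not overlap, with a log2 fold change of -0.68 (SE 0.105, edgeR adjusted p = 0.000259) against DMSO and -0.52 (edgeR adjusted p = 0.00254) against testosterone alone. Both genes kept their calls in all 17 alternative fits of either comparison.

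The genes beside them in the clusters were not called lower. hoxd4a, next to hoxd3a, had 11.7, 11.9 and 11.2 CPM in DMSO embryos and 13.1, 12.9 and 13.03 CPM in calindol embryos, and the ratio of hoxd3a to hoxd4a counts was 2.91 ± 0.433 (SD, n = 3) with DMSO, 2.57 ± 0.513 with testosterone, 1.60 ± 0.0601 with calindol and 3.43 ± 0.632 with EGCG. hoxc4a to its neighbour hoxc5a came to 1.37 ± 0.130, 1.31 ± 0.140, 0.822 ± 0.0840 and 1.497 ± 0.107 in the same order. In both pairs the 3 calindol libraries had the lowest ratios of all 12, as they had for hoxc4a to hoxc3a. The ratio of hoxb3a to hoxb4a was 4.24 ± 0.395, 4.33 ± 0.574, 3.82 ± 0.254 and 4.41 ± 0.237, and there the calindol and DMSO libraries overlapped. hoxd3a and hoxc4a were picked for their decreases, so low ratios follow in part from that choice. The gene models of these pairs may overlap, which leaves their counts uncertain. The ratios compare groups and not the levels of the genes, since their lengths differ.

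hoxb2a and hoxb3a were also lower against DMSO, by less. hoxb2a, which together with hoxa2b sets the identity of the second pharyngeal arch in zebrafish, had 14.0, 12.6 and 12.7 CPM in DMSO embryos and 8.68, 9.41 and 10.9 CPM in calindol embryos (log2 fold change -0.44, SE 0.139, edgeR adjusted p = 0.0294). hoxb3a had 74.6, 80.6 and 70.9 CPM against 63.4, 68.7 and 59.7 CPM (log2 fold change -0.24, SE 0.0758, edgeR adjusted p = 0.0306). Neither pair of ranges overlapped, but both calls were fragile. Leaving out any DMSO library, or the calindol library of clutch 1 or 2, ended the call of hoxb2a (adjusted p up to 0.102), and leaving out the DMSO library of clutch 1 or 2, or the calindol library of clutch 1 or 4, ended that of hoxb3a (adjusted p up to 0.143). The partner hoxa2b had 10.1, 8.49 and 8.47 CPM in DMSO embryos and 8.89, 9.67 and 8.60 CPM in calindol embryos, and these ranges overlapped.

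Among central genes, hoxc6a rose in calindol embryos against both DMSO and testosterone alone. The gene is active at trunk levels and had 11.5, 11.4 and 11.4 CPM in DMSO embryos, 10.8, 11.1 and 11.2 CPM with testosterone alone and 16.3, 14.0 and 16.3 CPM in calindol embryos. Every calindol library lay above the other 6, with a log2 fold change of 0.44 (SE 0.124, edgeR adjusted p = 0.0157) against DMSO and 0.49 (SE 0.125, edgeR adjusted p = 0.00918) against testosterone alone. The call against DMSO ended without the DMSO library or the calindol library of clutch 4 (adjusted p up to 0.0523). hoxb7a of the ba cluster and hoxc8a of the ca cluster, from the next paralog groups, had log2 fold changes of 0.33 and 0.25 against DMSO. These did not pass, although their ranges did not overlap.

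The posterior genes that rose against DMSO were hoxc13a and hoxc10a. hoxc13a reached 12.3, 9.41 and 11.9 CPM in calindol embryos, against 6.88, 7.69 and 6.43 CPM in DMSO embryos (log2 fold change 0.68, SE 0.164, edgeR adjusted p = 0.00623), and kept its call in all 17 alternative fits. hoxc10a, whose paralog group patterns motor neurons of the lumbar cord in mouse, reached 11.0, 7.79 and 8.23 CPM against 6.77, 6.26 and 5.19 CPM (log2 fold change 0.57, SE 0.189, edgeR adjusted p = 0.0364). Its call ended without the DMSO library of clutch 2 or 4 or the calindol library of clutch 1 (adjusted p up to 0.154). For both genes the calindol range lay above the DMSO range. With testosterone alone hoxc13a had 8.92, 9.92 and 8.08 CPM and hoxc10a 7.65, 8.94 and 7.51 CPM. For both genes these levels also lay above the DMSO range and overlapped the calindol range. Neither gene was called between calindol embryos and testosterone alone.

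Other posterior genes had smaller values in the same direction. In all, 21 of 23 were fitted above 0, with log2 fold changes from -0.22 (hoxb10a) to 0.68, and 8 had a calindol range above the DMSO range (34.8% of 23, beside 20.3% of all genes, with 43.1% of all genes not overlapping in either direction). Without the calindol library of clutch 1 the posterior median fell from 0.35 to 0.17 and 1 posterior gene was called. The share of all genes called in that smaller fit is not given here. Against testosterone alone, 3 Hox genes changed in calindol embryos: hoxd3a and hoxc4a lower and hoxc6a higher. Of all genes tested, 25.8% were called there, 11% higher and 14.8% lower. No posterior gene was among the 3, and the posterior median was 0.19, with 19 of 23 fitted above 0. This too moved with single libraries: the median was 0.10 without the calindol library of clutch 1 (14 of 23 above 0), 0.10 without the testosterone library of clutch 4, 0.34 without that of clutch 2 and 0.29 without the calindol library of clutch 2.

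**Figure D2:**
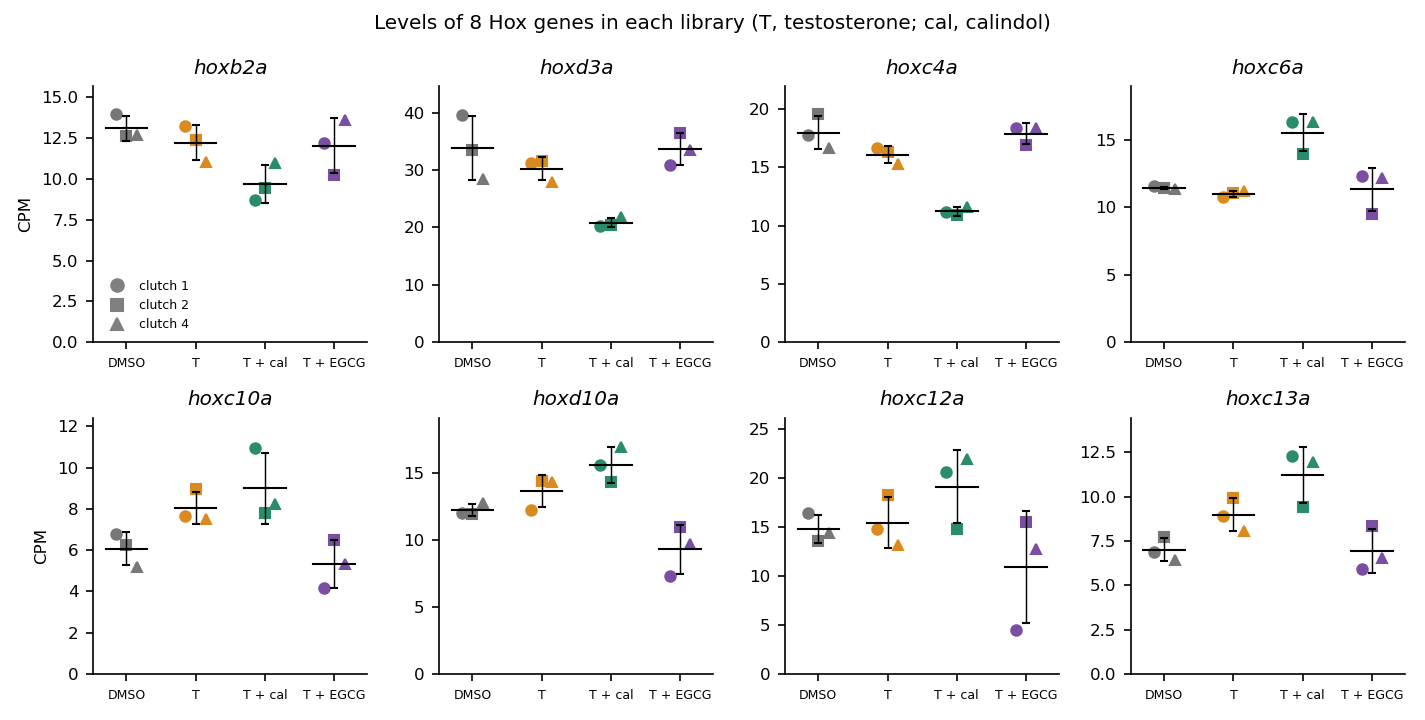
Levels in CPM (vertical axes from 0) of 8 Hox genes in each library, with 1 point per clutch, a line at the mean of 3 libraries and bars of 1 SD. The calindol points of hoxd3a and hoxc4a lie below all others and those of hoxc6a above all others, while the EGCG points of hoxc12a run from 4.50 to 15.5 CPM.

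In EGCG embryos the Hox genes leaned lower, and hardly any passed the test. Against DMSO, 1 of 44 changed, and it was lower, beside 17% of all genes called in either direction, with 9.33% lower and 7.69% higher. The median over the Hox genes was -0.17 (-0.11 without the EGCG library of clutch 1), beside 0.00 over all genes, with 36 of 44 fitted below 0. The CPM ranges of 10 Hox genes lay below those of DMSO and 0 above, beside 21.6% and 21.4% of all genes, or 43.1% in either direction.

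The gene that passed was hoxd12a, expressed in the posterior fin bud. Its levels were 6.67, 5.89 and 5.85 CPM in DMSO embryos and 2.84, 4.71 and 4.07 CPM in EGCG embryos, so the ranges did not overlap. Its log2 fold change was -0.63 (SE 0.204, edgeR adjusted p = 0.0457). With clutch as a replicate block it was no longer called, and it kept the call in 5 of 17 alternative fits (adjusted p 0.0255 to 0.150). It was lost without any of the DMSO or EGCG libraries, without the testosterone library of clutch 1 and without the calindol library of clutch 2 or 4. Its neighbour hoxd13a, which acts in the distal fin, had 2.54, 2.28 and 2.67 CPM against 1.78, 0.956 and 1.98 CPM, with a log2 fold change of -0.67 (SE 0.332) that did not pass.

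Against testosterone alone, hoxd10a was the Hox gene that changed in EGCG embryos, beside 11.6% of all genes called in either direction, 5.59% lower and 6.05% higher. It had 12.3, 14.4 and 14.3 CPM with testosterone and 7.35, 11.0 and 9.69 CPM with EGCG. The ranges did not overlap, and the log2 fold change was -0.53 (SE 0.143, edgeR adjusted p = 0.0277). The call ended without the testosterone library of clutch 2 or 4 or the EGCG library of clutch 1 or 4, with adjusted p between 0.0144 and 0.103 over all 17 alternatives. hoxc9a, a trunk gene, had 13.9, 17.6 and 12.8 CPM with testosterone and 8.65, 12.997 and 10.7 CPM with EGCG, which overlapped and did not pass (log2 fold change -0.43, SE 0.161).

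All 23 posterior genes were fitted below 0 against testosterone alone, with log2 fold changes from -0.69 to -0.12 and a median of -0.32. The median was -0.19 without the testosterone library of clutch 2, with 22 of 23 below 0, and -0.46 without that of clutch 4. The anterior and central medians were 0.02 and 0.01, and both changed sign when single libraries were left out. Against DMSO, 20 of 23 posterior genes were fitted below 0, with a median of -0.23, which was -0.11 without the EGCG library of clutch 1 and -0.15 without the DMSO library of clutch 2.

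EGCG against calindol embryos was the comparison with the most calls, among all genes as among the Hox genes. Of 44 Hox genes, 20 changed, beside 43.1% of all genes, so the number called was close to the share over all genes. By direction, 3 were higher and 17 lower with EGCG (6.82% and 38.6%), beside 21.1% of all genes called higher and 22% called lower. The Hox median was -0.36, and the median over all genes was -0.06. With clutch as a replicate block 17 genes were called, and hoxd4a, hoxa13a and hoxc12a no longer passed. CPM ranges did not overlap for 22 Hox genes, of which 3 were higher and 19 lower, beside 53.6% of all genes, or 24.9% and 28.7%.

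The 3 genes higher with EGCG were the anterior hoxd3a and hoxb3a and the central hoxc4a. EGCG embryos had 30.8, 36.4 and 33.5 CPM of hoxd3a (log2 fold change 0.69, SE 0.116, edgeR adjusted p = 0.000244), 83.0, 75.8 and 78.0 CPM of hoxb3a (0.30, SE 0.0765, edgeR adjusted p = 0.00533) and 18.4, 16.9 and 18.4 CPM of hoxc4a (0.67, SE 0.106, edgeR adjusted p = 0.000157). These EGCG levels of hoxd3a and hoxc4a lay within the DMSO range, with log2 fold changes of -0.01 against DMSO for both. hoxc3a, an anterior gene of the ca cluster, went the other way, with 30.7, 33.0 and 32.7 CPM in EGCG embryos and 43.6, 40.0 and 36.9 CPM in calindol embryos (log2 fold change -0.32, edgeR adjusted p = 0.0213).

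Posterior genes made up most of those lower with EGCG, and 23 of the 44 genes tested were posterior. Of these 23 genes 12 were called lower, or 52.2%, and 0 higher, beside 22% and 21.1% of all genes. All 23 were fitted below 0, with log2 fold changes from -0.86 to -0.02 and a median of -0.53. Without the clutch 1 library of either calindol or EGCG embryos, 4 posterior genes were called, in fits with fewer libraries. The central class had 4 of 13 lower (30.8%) and 1 higher with a median of -0.20. The anterior class had 1 of 8 lower (12.5%) and 2 higher with a median of -0.08. By paralog group, the medians of groups 1 to 4 were -0.27, 0.19, 0.30 and 0.01, those of groups 5 to 8 were -0.05, -0.29, -0.50 and -0.23, and those of groups 9 to 13 were -0.51, -0.60, -0.50, -0.73 and -0.63. Group 1 and groups 5 to 8 thus lay below 0 as well, group 5 only slightly, and group 7, a single gene, lay at the level of groups 9 and 11. Across the 44 genes, Spearman's rho between paralog number and this log2 fold change was -0.74, given as a description, since genes of a cluster are neighbours measured in the same libraries.

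Of the posterior genes, hoxd10a had the smallest p, at 15.6, 14.3 and 17.0 CPM in calindol embryos and 7.35, 11.0 and 9.69 CPM in EGCG embryos (log2 fold change -0.72, SE 0.142, edgeR adjusted p = 0.000887). hoxc13a stood at 12.3, 9.41 and 11.9 CPM against 5.93, 8.35 and 6.55 CPM (log2 fold change -0.68, SE 0.168, edgeR adjusted p = 0.00452), and hoxc10a at 11.0, 7.79 and 8.23 CPM against 4.15, 6.50 and 5.34 CPM (-0.73, SE 0.195, edgeR adjusted p = 0.00719). None of the 3 genes overlapped between the groups. hoxd12a fell by 0.73 (log2, SE 0.204, edgeR adjusted p = 0.00978), from 6.35, 5.92 and 7.43 CPM to 2.84, 4.71 and 4.07 CPM.

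The largest fold changes belonged to genes whose libraries scattered more. hoxa13a, of the group that patterns the distal fin, had 6.18, 2.58 and 4.98 CPM in calindol embryos and 2.73, 2.42 and 2.42 CPM in EGCG embryos (log2 fold change -0.86, SE 0.310, edgeR adjusted p = 0.0352). hoxc12a had 20.6, 14.8 and 21.9 CPM against 4.50, 15.5 and 12.7 CPM (-0.75, SE 0.280, edgeR adjusted p = 0.0411). Both genes overlapped between the groups, and both calls were lost with the replicate block. hoxd11a had 12.2, 9.01 and 10.9 CPM against 5.22, 7.33 and 7.65 CPM, without overlap (-0.64, SE 0.220, edgeR adjusted p = 0.0280).

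The other posterior genes called lower were hoxa9b and hoxd9a, hoxa10b, hoxa11b and hoxc11b, with log2 fold changes of -0.53, -0.53, -0.48, -0.52 and -0.50. Those not called included hoxb9a (-0.17), hoxb10a (-0.02) and hoxb13a (-0.46), so none of the posterior genes of the ba cluster passed. The paralog 13 genes hoxa13b, hoxd13a and hoxc13b had -0.64, -0.62 and -0.43 and did not pass either. hoxd13a had 3.15, 1.62 and 2.46 CPM against 1.78, 0.956 and 1.98 CPM. The standard errors of hoxa13b and hoxd13a were 0.281 and 0.334, above that of hoxd10a.

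Central genes lower with EGCG were hoxc6a, hoxb7a, hoxc8a and hoxd4a. hoxc6a had 16.3, 14.0 and 16.3 CPM in calindol embryos and 12.3, 9.49 and 12.2 CPM in EGCG embryos (log2 fold change -0.46, SE 0.127, edgeR adjusted p = 0.00893). hoxb7a had 13.1, 10.6 and 11.2 CPM against 9.36, 7.71 and 7.82 CPM (-0.50, SE 0.155, edgeR adjusted p = 0.0165). hoxc8a, which shapes thoracic identity in mouse, had 27.4, 22.8 and 28.2 CPM against 17.8, 21.0 and 21.6 CPM (-0.37, SE 0.108, edgeR adjusted p = 0.0130), and hoxd4a was lower by 0.38 on the log2 scale at an edgeR adjusted p of 0.0452. In these 4 genes the ranges did not overlap. The call of hoxd4a was fragile and held in 4 of 18 alternative fits. It was lost with the DESeq2 test or size factors, without the filter, with 6 libraries only and in 8 of 12 fits without 1 library.

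**Figure D3:**
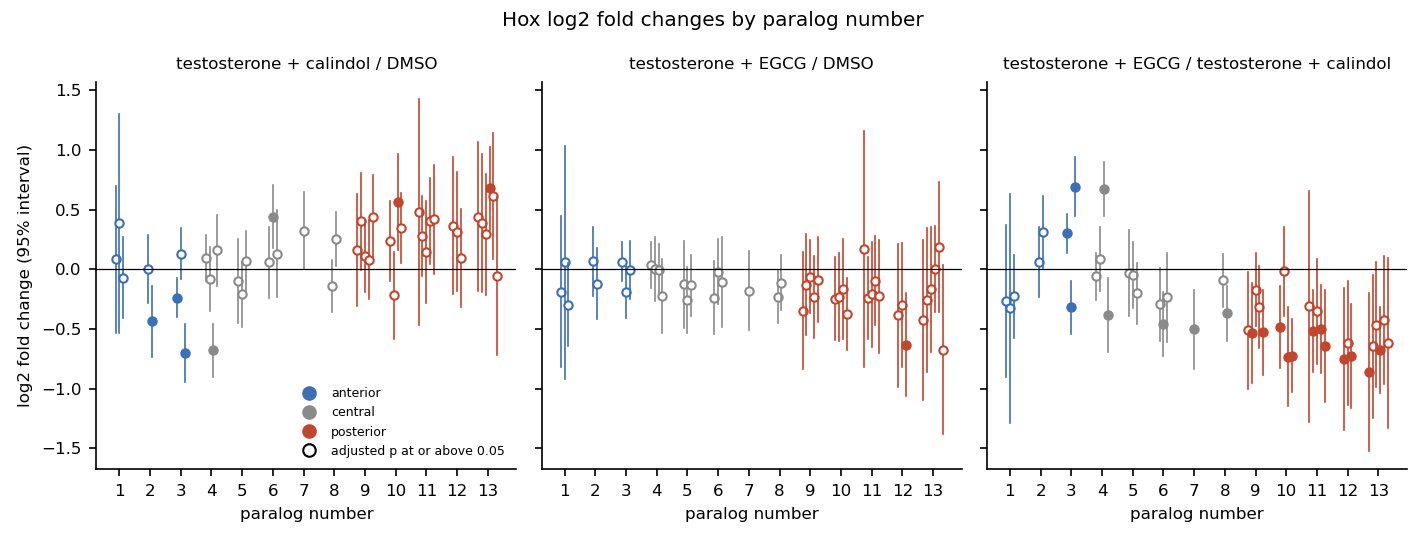
Each point is the log2 fold change of 1 Hox gene with its 95% interval, plotted by paralog number and coloured by class, with filled points where the adjusted p was under 0.05. From left to right the panels compare calindol embryos with DMSO (7 filled), EGCG embryos with DMSO (1 filled) and EGCG with calindol embryos (20 filled), and in the last all 23 posterior points lie below 0.

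By cluster, da had 5 of 7 genes lower and 1 higher with EGCG against calindol (median -0.62), ca 6 of 11 lower and 1 higher (-0.35), and ab 3 of 5 lower (-0.52). The aa cluster had 1 of 6 lower (-0.29), cb 1 of 4 lower (-0.46), and ba 1 of 11 lower and 1 higher (-0.09). Of all genes, 22% were called lower and 21.1% higher in this comparison. Clusters also differ in how many of their tested genes are posterior, so cluster and paralog class were not separated here. Both copies were tested for 7 genes duplicated in zebrafish (hoxa9, hoxa11, hoxa13, hoxc6, hoxc11, hoxc12 and hoxc13). The fitted sign was the same for both copies in 7 of 7 pairs with EGCG against calindol and in 7 of 7 with calindol against DMSO. It was the same in 6 of 7 with EGCG against DMSO, with EGCG against testosterone and with testosterone against DMSO, and in 4 of 7 with calindol against testosterone. All of these pairs but hoxc6 are posterior. With EGCG against calindol all 23 posterior genes were fitted below 0, and with calindol against DMSO 21 of 23 were above 0. Agreement of copies there follows largely from the class and says little about the copies.

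The share of each class among the Hox counts of a library needs no scaling to the library total. Posterior genes took 31.7% ± 1.12 (SD, n = 3) of all Hox counts in DMSO embryos, 35.0% ± 2.55 with testosterone, 37.3% ± 3.08 in calindol embryos and 29.7% ± 3.08 in EGCG embryos. The calindol libraries had 39.0%, 33.7% and 39.1% and the EGCG libraries 26.6%, 32.8% and 29.6%, so those groups did not overlap. Anterior genes took 29.2% ± 0.920, 27.6% ± 0.943, 24.7% ± 1.35 and 30.9% ± 1.69 in the same order of groups. The central share stayed between 35.9% and 40.6% in all 12 libraries. In CPM, the summed posterior level was 211 ± 14.1 with DMSO, 229 ± 37.9 with testosterone, 255 ± 31.9 with calindol and 181 ± 27.7 with EGCG, and on this scale the calindol and EGCG ranges did not overlap while those of every other pair of groups did. The summed anterior level was 194 ± 9.01 CPM with DMSO, 179 ± 13.3 with testosterone, 169 ± 8.83 with calindol and 187 ± 3.82 with EGCG. With EGCG the mean anterior share was thus above that of DMSO, while the mean level was not. Shares of a library add up to the whole, so a lower posterior share raises the others. These shares are sums of counts and follow the genes with most counts. In the anterior class these were hoxb3a, hoxc3a and hoxd3a, whose counts are uncertain.

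**Figure D4:**
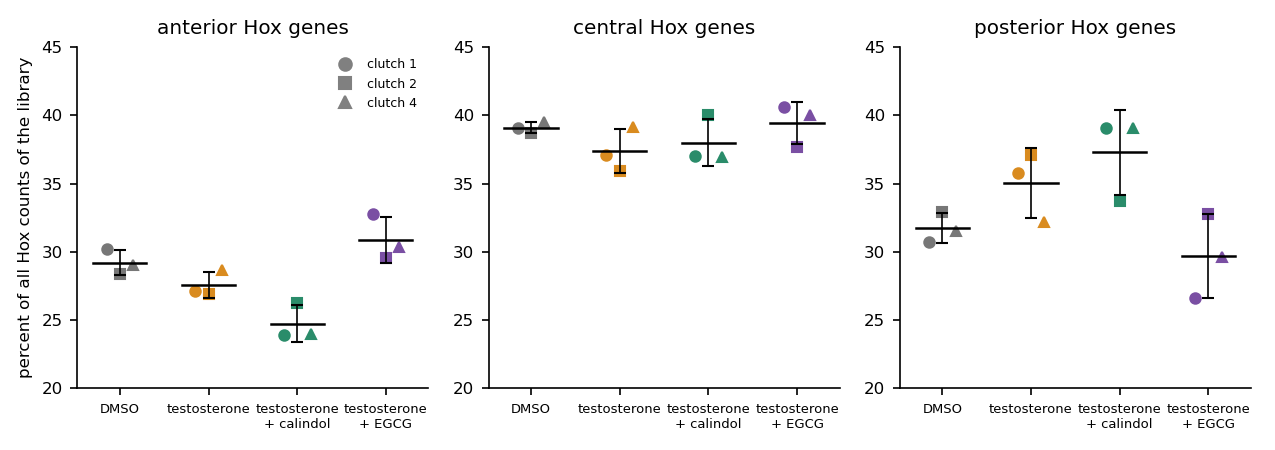
Percent of all Hox counts of a library that fell to anterior, central and posterior genes (axes from 20 to 45%), with 1 point per clutch, a line at the mean of 3 libraries and bars of 1 SD. The 3 EGCG libraries lie below the 3 calindol libraries in the posterior panel and above them in the anterior panel, and clutch 2 lies closest to the other group.

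Posterior genes moved together from library to library within groups, and this bears on every posterior result. The EGCG library of clutch 1, which was the shallowest of the 12, had the lowest of the 3 EGCG values in 17 of 23 posterior genes. Among calindol libraries clutch 1 was highest in 17 and clutch 2 lowest in 18, and among testosterone libraries clutch 2 was highest in 22 and clutch 4 lowest in 16. Without the calindol library of clutch 1 the comparison of EGCG with calindol had 9 Hox calls, 4 of them posterior, and without the EGCG library of clutch 1 it had 10, also with 4 posterior. Without both, an alternative chosen after seeing the data, 5 Hox genes were called: hoxc4a and hoxd3a higher, and hoxb7a, hoxd10a and hoxc6a lower. The posterior class still had 22 of 23 genes fitted below 0 there, with a median of -0.39, and 6457 genes were called over the whole table.

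Genes that act with Hox proteins or upstream of them were counted as lists. Across these lists and the tissue lists below, evx1, evx2, en1b and fgf8a each stood in more than 1, so the lists are not separate evidence. Each count is to be read beside the share of all genes called. That share was 21.1% higher and 22% lower with EGCG against calindol, 11.5% and 15.9% with calindol against DMSO, 7.69% and 9.33% with EGCG against DMSO, and 2.93% and 3.39% with testosterone against DMSO. Among the 14 TALE cofactors tested, 8 rose and 1 fell with EGCG against calindol (median 0.58, with -0.06 over all genes), 6 fell and 0 rose with calindol against DMSO (median -0.23), and 3 rose and 0 fell with EGCG against DMSO (median 0.20). With testosterone alone edgeR and DESeq2 called 0 of them, and edgeR gave 1 at an unadjusted p under 0.05. meis2a had 265, 267 and 262 CPM in DMSO embryos, 266, 241 and 258 CPM with testosterone, 139, 170 and 144 CPM in calindol embryos and 343, 351 and 317 CPM in EGCG embryos. The calindol and EGCG groups stood apart from each other and from the rest, with a log2 fold change of 1.16 between them (SE 0.0785, edgeR adjusted p = 2.66e-07). meis2b (1.02, edgeR adjusted p = 1.1e-06) and pbx4 (0.67, edgeR adjusted p = 9.92e-06) followed in order of p.

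The caudal and even-skipped genes are few. Of 6 tested, 2 rose and 0 fell with EGCG against calindol, 2 fell with calindol against DMSO, 1 rose and 1 fell with EGCG against DMSO, and 1 fell with testosterone. cdx1b, a caudal factor with a role in the gut, had 39.0, 37.0 and 38.8 CPM in DMSO embryos, 20.0, 16.6 and 22.3 under testosterone alone, 25.8, 17.6 and 22.5 in calindol embryos and 25.1, 24.5 and 17.2 in EGCG embryos. It was lower in every exposed library than in any DMSO library, with log2 fold changes of -0.96 (edgeR adjusted p = 0.0018), -0.80 (edgeR adjusted p = 0.00141) and -0.79 (edgeR adjusted p = 0.00428). These comparisons share the DMSO libraries. evx2, which lies beside hoxd13a and marks spinal interneurons, had 19.5, 16.9 and 15.5 CPM in DMSO embryos, 9.98, 11.7 and 11.2 in calindol embryos and 23.8, 24.5 and 26.3 in EGCG embryos. It rose with EGCG against calindol (log2 fold change 1.19, SE 0.120, edgeR adjusted p = 2.99e-06), the comparison in which hoxd9a to hoxd12a on its side of the cluster fell.

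Retinoic acid genes were called in both directions. Of 22 tested, 4 rose and 3 fell with EGCG against calindol (43.1% of all genes were called there), 3 rose and 3 fell with calindol against DMSO (27.4% of all genes), and 1 rose and 2 fell with testosterone (6.32% of all genes). With EGCG against DMSO, where 17% of all genes were called, edgeR called 0, with 2 at an unadjusted p under 0.05, and DESeq2 called 1. The receptors rxrgb (log2 fold change 0.65, edgeR adjusted p = 0.000415) and rxrba (0.36, edgeR adjusted p = 0.000837) were higher, and crabp2a, a binding protein for retinoic acid, was lower with EGCG than with calindol (-0.59, edgeR adjusted p = 0.00207). Of 25 chromatin regulators, 12 rose and 6 fell in that comparison, beside 21.1% and 22% of all genes, 6 rose and 9 fell with calindol against DMSO, 7 rose with EGCG against DMSO and 2 rose with testosterone. The methyltransferase gene kmt2bb (0.78, edgeR adjusted p = 1.32e-06) and the demethylase genes kdm6a (0.84, edgeR adjusted p = 2.31e-06) and kdm6al (1.00, edgeR adjusted p = 4.37e-06) led it by p.

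**Figure D5:**
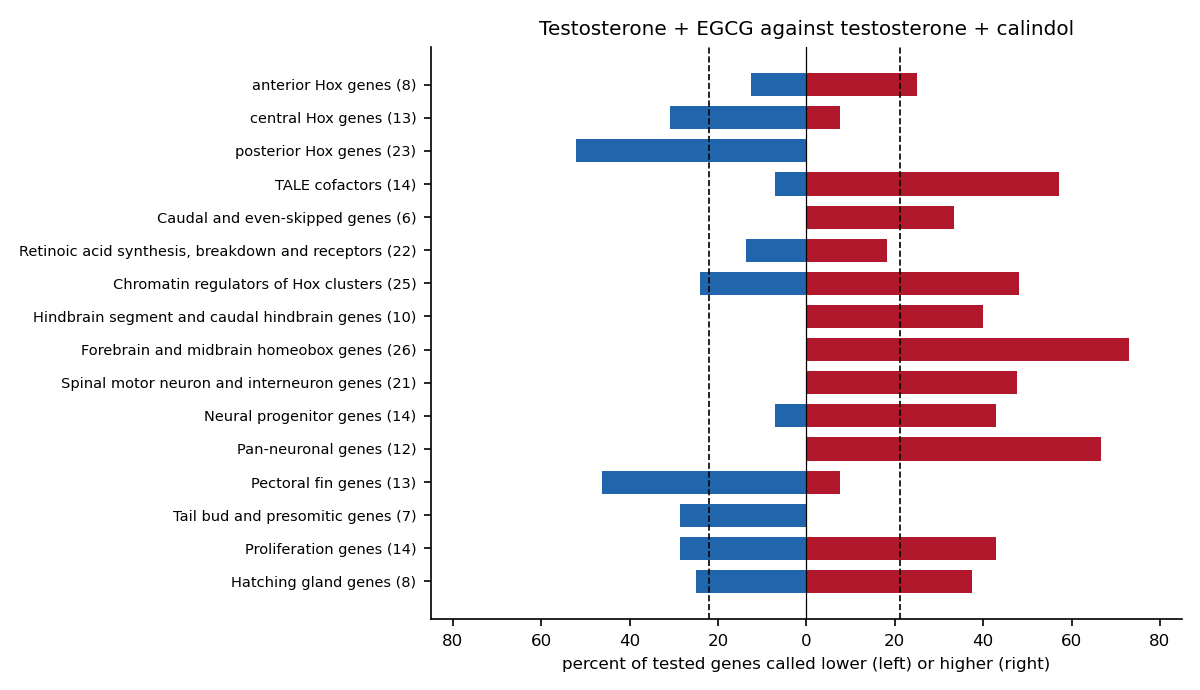
Bars give the percent of tested genes called higher (right) or lower (left) in EGCG against calindol embryos for the 3 Hox classes and 13 gene lists, with the number tested in parentheses and dashed lines at the 21.1% and 22% of all genes. Posterior Hox genes and pectoral fin genes extend to the left, and neuronal, brain, spinal and TALE genes to the right.

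Tissue markers differed between the same groups, in more than 1 direction. Of 12 pan-neuronal genes, 8 rose and 0 fell with EGCG against calindol (median 0.80), beside 21.1% and 22% of all genes, and 9 fell and 1 rose with calindol against DMSO (median -0.71), beside 15.9% and 11.5%. Their summed level was 2952 to 3024 CPM in DMSO embryos, 2676 to 2944 with testosterone, 1824 to 2399 in calindol and 3196 to 3459 in EGCG embryos. elavl4, elavl3 and rbfox3a had the smallest p, with log2 fold changes of 1.27, 1.18 and 1.26 between EGCG and calindol embryos (edgeR adjusted p = 4.38e-07, 6.24e-07 and 8.5e-07). Forebrain and midbrain homeobox genes, not all of them confined to Hox-negative tissue, had 19 of 26 higher and 0 lower (median 0.56). The list was led by otx2b (1.11, edgeR adjusted p = 7.41e-07), and with calindol against DMSO 11 of its genes fell and 0 rose.

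Hindbrain and spinal markers went the way of the brain markers. In EGCG against calindol embryos, 4 of 10 hindbrain genes and 10 of 21 spinal neuron genes rose and 0 of either fell (medians 0.52 and 0.36), beside 21.1% and 22% of all genes, and with calindol against DMSO 3 and 8 fell and 0 rose, beside 15.9% and 11.5%. mafba, a segmentation gene of the caudal hindbrain where anterior Hox genes act, was 0.61 higher on the log2 scale with EGCG than with calindol (edgeR adjusted p = 6.69e-05), and lhx4, gata3 and pax2a were 1.17, 1.24 and 1.19 higher (edgeR adjusted p = 7.2e-07, 1.07e-06 and 1.36e-06). Neural progenitor genes had 6 of 14 higher and 1 lower (median 0.30), among them notch1a (1.03, edgeR adjusted p = 1.87e-06). hoxd3a, hoxb3a and hoxc4a moved in the direction of these lists, but most Hox genes did not. With EGCG against calindol, 4 of 8 anterior and 11 of 13 central Hox genes were fitted below 0, and the anterior hoxc3a was called lower.

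Pectoral fin genes went the way of the posterior Hox genes. Of 13 tested, 6 fell and 1 rose with EGCG against calindol (median -0.49), 3 rose and 1 fell with calindol against DMSO (median 0.19), and 4 fell and 0 rose with EGCG against DMSO (median -0.26). All genes were called lower in 22%, 15.9% and 9.33% of cases and higher in 21.1%, 11.5% and 7.69% of cases in these comparisons. The summed level of the whole fin list, tested or not, was 1421 to 1527 CPM in DMSO embryos and 1345 to 1592 with testosterone. It was 1463 to 2067 in calindol and 1089 to 1140 in EGCG embryos. and2, which encodes an actinodin of the fin fold, was 0.73 lower on the log2 scale with EGCG than with calindol (edgeR adjusted p = 5.99e-05), prrx1a, a fin mesenchyme gene, 0.75 lower (edgeR adjusted p = 3.88e-05), and msx1b 0.77 lower (edgeR adjusted p = 0.000195).

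The remaining lists were mixed. Tail bud genes had 2 of 7 lower and 0 higher with EGCG against calindol, where 22% of all genes were lower. These were wnt5b (-0.53, edgeR adjusted p = 4.46e-05) and bmp4 (-0.51, edgeR adjusted p = 0.00369). The summed level of the whole tail bud list, tested or not, was 93.7 to 102 CPM in calindol and 69.3 to 71.4 CPM in EGCG embryos. Among 14 proliferation genes, 6 rose, led by mcm7 (0.48, edgeR adjusted p = 0.000101), and 4 fell, among them mki67 (-0.46, edgeR adjusted p = 0.000642). Of 8 hatching gland genes, 3 rose and 2 fell, and the hatching enzyme gene he1.1 rose by 3.98 (log2, edgeR adjusted p = 5.99e-07). With testosterone alone, edgeR and DESeq2 called 0 genes of the forebrain and midbrain, hindbrain, spinal, pectoral fin, tail bud and proliferation lists, and edgeR gave 3, 1, 2, 0, 0 and 2 of them at an unadjusted p under 0.05. The part of these tissue markers in the Hox differences was not tested.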

How the data were processed

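RNA from 12 samples of whole embryos was enriched for poly(A) and made into directional libraries, per the labels' protocols. The authors deposited a table of raw read counts per gene. Reads were trimmed with Trim Galore 0.6.10, aligned with STAR 2.7.1a and counted with featureCounts on the build GRCz11, per the submitters' processing notes; the gene annotation, the strandedness option and how reads with several matches or in overlapping genes were handled are not given in the sources used here. No coordinates or sequences are printed, because the gene table at hand is of another assembly (GRCz12tu) and was used for names and neighbours.

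All groups entered 1 fit in edgeR 4.0.16 (R 4.3.3, limma 3.58.1) on the deposited counts, with trimmed-mean scaling, filterByExpr at a minimum count of 10 (which kept 20237 of 32520 genes) and 1 mean for each group. The residual degrees of freedom were 8, and the prior ones had a median of 6.68. All p-values are two-sided, with Benjamini-Hochberg adjustment within each of 6 comparisons across every gene tested. The biological coefficient of variation was 13.1%. The fit was run on simulated counts drawn from its own estimates of the spread, with genes independent of each other. Such counts lack the joint shifts of posterior genes between libraries, so the run says nothing about those. Intervals have a level of 95%, and depth limits precision most in the EGCG library of clutch 1. Floors of 3 counts cover counting error only.

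Groups come from the titles. The titles give a clutch number, and equal numbers were taken to mean a shared clutch that pairs libraries across groups. Once group means were removed, same-clutch libraries correlated across genes at a mean of 0.00052 (18 pairs, -0.103 to 0.116) and those of different clutches at -1.7e-05 (36 pairs). Between replicates the chi-square per degree of freedom was 3.08 to 22.0, above counting error. The series text calls the 3 libraries of a group biological replicates, and each has its own clutch number. The alternatives were DESeq2 1.42.0 size factors or test, no filter, a replicate block, 6 libraries only and leaving out each library. The Hox genes, the 13 gene lists and the tests were chosen with earlier results of these data known. Levels in every library are given for hoxb1a and hoxb4a. For hoxc9a, hoxd13a and the called genes with the largest fold changes or smallest p, levels are given for the groups compared in the text. The lists' genes with the smallest p are named. The rule for naming genes also covered the most abundant gene per length, a part not applied, since no gene lengths were used. Other called genes, neighbours and the genes beside the bb cluster were named after their values were seen. A gene hoxa3a was not analysed here.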

Additional observations from a re-analysis of the deposited data

How the results depend on the processing

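No call of a single Hox gene changed direction in any alternative. Over 32 called results and 564 combinations with an alternative, 459 kept the call, 105 lost it and 0 reversed. In all, 10 results kept it in every one. These results were picked for passing in the same libraries that the alternatives refit, so a reversal was unlikely from the start. Many of the fits without 1 library left out a library of a group not compared, which moves a fold change little. The number of Hox genes called with EGCG against DMSO, 1 in the fit described, was 0 with DESeq2 size factors, 0 without the filter, 0 with the replicate block and 2 with 6 libraries only. With EGCG against testosterone it was 1, and 0 with 6 libraries only. With EGCG against calindol it was 20, and 5 when the clutch 1 libraries of both groups were left out, an alternative chosen after seeing the data; it was 16 with 6 libraries only, 17 with the replicate block, 18 with DESeq2 and 19 without the filter. Leaving out 1 library at a time gave 0 to 0 calls for testosterone against DMSO, 4 to 9 for calindol against DMSO and 0 to 1 for EGCG against DMSO. It gave 3 to 5 for calindol against testosterone (5 without the testosterone library of clutch 2), 0 to 2 for EGCG against testosterone and 9 to 22 for EGCG against calindol. For calindol against DMSO, 4 calls were left without the DMSO library of clutch 2 or 4 or the calindol library of clutch 1. Fits without a library have fewer samples in 1 group. With the replicate block, calls beyond those named in the report did not change. The summed level of the ba cluster in EGCG embryos was 238 CPM and 243 CPM with the plain library total, a shift above its SD of 2.40; no other summed level of a Hox class or cluster moved by more than its SD, and the sums over the gene lists were not recomputed. The median fold change of the Hox genes kept its direction in each comparison with DESeq2 size factors, but with testosterone against DMSO it turned from 0.05 to -0.09 without the testosterone library of clutch 2 and to -0.02 without the DMSO library of clutch 4. Depth limits hoxb1a and hoxa11a most. The cause of these shifts was not tested.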

Other observations

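Against DMSO, edgeR called 3 of 22 retinoic acid genes with testosterone, 6 in calindol embryos and 0 in EGCG embryos. In EGCG embryos 2 had an unadjusted p under 0.05, and DESeq2 called 1. Of 25 chromatin genes it called 2, 15 and 7 with edgeR in the same order of groups. Over all genes tested, 6.32%, 27.4% and 17% were called in these comparisons. The genes named here were taken for their small p. rdh10b, which makes retinaldehyde, was 0.63 higher on the log2 scale in calindol embryos (SE 0.126, edgeR adjusted p = 0.00175), and crabp2b, a retinoic acid binding protein, was 0.34 higher with testosterone (SE 0.0731, edgeR adjusted p = 0.0109) and 0.33 higher in calindol embryos (SE 0.0730, edgeR adjusted p = 0.00337). The receptor genes rxrga and rxraa were 0.61 and 0.54 lower with testosterone, with log2 fold changes of -0.61 and -0.54 (edgeR adjusted p = 0.0311 and 0.0333). The Polycomb gene bmi1a had log2 fold changes of 0.48 with testosterone (edgeR adjusted p = 0.00163) and 0.70 in calindol embryos (edgeR adjusted p = 2.07e-05). ezh1, a histone methyltransferase gene, had 0.96 with testosterone (edgeR adjusted p = 0.00115) and 1.29 in EGCG embryos (edgeR adjusted p = 8.65e-05). These comparisons share the DMSO libraries.

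tbxta, the Brachyury gene of notochord and tail bud, was lower in both antagonist groups. It had 7.20, 7.64 and 7.85 CPM in DMSO embryos, 4.94, 8.08 and 5.24 CPM with testosterone, 1.41, 3.2895 and 2.89 CPM in calindol embryos and 1.66, 2.87 and 1.76 CPM in EGCG embryos. Its log2 fold change against DMSO was -1.58 in calindol (SE 0.292, edgeR adjusted p = 0.000997) and -1.82 in EGCG embryos (SE 0.306, edgeR adjusted p = 0.00149). Posterior Hox genes did not share this order, since they leaned higher in the former group and lower in the latter.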
